A study of Mus musculus with 12 samples.

Results

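The BCL2 family of survival and death genes was followed across 4 sorted populations of CD4+ T cells from mouse Peyer's patches, the lymphoid tissue of the small intestine. Of 10 family members chosen by symbol (Bcl2, Bcl2l1, Mcl1, Bax, Bak1, Bcl2l11, Bid, Pmaip1, Bbc3 and Bad), 9 had a probe set annotated to them alone, among 19937 genes in all. Bax was not analysed here. Each of the 9 had 1 probe set. Bid was too dim on every array, so 8 members were among the 11240 genes tested, those above the array median on at least 3 arrays.

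The mice were IL-21eGFP animals, in which a bacterial artificial chromosome transgene makes green fluorescent protein (GFP) under the control of the gene for IL-21, a helper cytokine for B cells; all 4 groups came from this line. GFP+ Tfh were T follicular helper cells titled GFP+CXCR5+PD1+, and GFP- Tfh were titled GFP-CXCR5+PD1+. The other groups were GFP- cells titled CXCR5+PD1- and CXCR5-PD1-, and each group had 3 arrays. All were sorted as CD4+ cells negative for MHC class II and Epcam; the sorting protocol names the other populations but not the CXCR5+PD1- one. CXCR5 is the chemokine receptor that draws cells into the follicle and PD1 is an inhibitory receptor. The labels give no age, strain or treatment, and do not say whether replicates were separate animals or pools, so p-values measure only the spread between these samples. The characteristics list the GFP+ arrays as CXCR5- and PD1-, against their titles, and every array as T follicular helper; groups here follow the titles.

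BCL2 proteins decide whether the outer membrane of the mitochondrion is opened, the step that releases cytochrome c and starts the caspases. Guard proteins (Bcl-2, Bcl-xL and Mcl-1) hold the pore formers Bax and Bak in check, and BH3-only proteins (Bim, Bid, Noxa, Puma and Bad) bind the guards or the pore formers and tip the balance toward death. In T cells Bcl-2 is maintained by IL-7 signals, Bim limits the life of resting and responding cells, and Noxa acts chiefly through Mcl-1.

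The array medians were 6.34 to 6.45 on the log2 scale. The deposited values had been through RMA, which equalises the arrays' distributions, so close medians are no result. The root mean square deviation from the group mean was 0.287 to 0.405 on the GFP+ Tfh arrays and 0.163 to 0.204 on the other 9. Replicate 3 of each group was female and replicates 1 and 2 were male by Xist and Eif2s3y. Cxcr5 had log2 values of 8.62 to 9.14 for GFP+ Tfh, 7.91 to 8.61 for GFP- Tfh, 5.19 to 5.87 in the group titled CXCR5+PD1- and 5.36 to 6.19 in CXCR5-PD1- cells, so at the RNA level the CXCR5+PD1- title was not borne out. The gate markers Cxcr5, Pdcd1 (PD1), Il21 and Bcl6 (the Tfh master regulator) were all higher in Tfh cells, by 1.59 to 3.71. CXCR5 and PD1 were themselves used in the sort, so the values of Cxcr5 and Pdcd1 describe the gates and are no test. Cxcr5 was above the array median on 6 arrays only, all of them Tfh. The 6 T cell markers averaged 4.44 to 4.73 above the array median on GFP+ Tfh arrays and 4.51 to 4.58 on GFP- Tfh arrays. On CXCR5+PD1- arrays they averaged 4.25 to 4.36 and on CXCR5-PD1- arrays 4.23 to 4.42. In both Tfh groups over both PD1- groups 2 of the 6 passed, both higher, against 5.05% of all genes tested. They were Cd4 (0.53, limma adjusted p = 0.00457) and Cd3g (0.32, limma adjusted p = 0.047). Cd3d was slightly lower (-0.05). The part of this in the results was not tested. Lists of B cell, myeloid, epithelial, and CD8 and NK cell markers averaged below the median on every array, and stromal markers lay at 0.50 to 0.70 above it in all groups. The stromal list was uneven. Pecam1 stood highest, at 8.34 to 9.37 in Tfh and 9.27 to 9.65 in PD1- cells. Col1a1 and Col1a2 were above the median on 12 arrays and Col3a1 on 11, while Pdgfra and Cdh5 were above it on 0. For the CD8 and NK list the mean relative to the median was -0.88 to -0.77 on GFP+ Tfh arrays and -0.87 to -0.74 on GFP- Tfh arrays, against -0.67 to -0.43 in CXCR5+PD1- and -0.55 to -0.14 in CXCR5-PD1- cells, and their part in the results was not tested. These are bulk samples, in which fewer cells of a type and less RNA per cell cannot be told apart.

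Between both Tfh groups and both PD1- groups, 3 members fell and 1 rose. Bcl2, Mcl1 and Bcl2l11 (which encodes Bim) were lower in Tfh cells and Pmaip1 (which encodes Noxa) was higher, with log2 differences of -1.12 to 0.73 over the 8 members tested. That is 4 of 8 members past adjusted p 0.05, where 10.4% of all genes tested passed, 5.33% lower and 5.05% higher. The members were chosen with earlier results of these data known. Shares set beside those of all genes, here and below, are therefore descriptions and no test of the family. The members' median difference was -0.12 and that of all genes tested was -0.02. All tests are contrasts in 1 limma model of the 12 arrays, with Benjamini-Hochberg adjustment over the 11240 genes. With the male arrays alone, or with GFP- Tfh as the only Tfh group, 2 members (Bcl2 and Bcl2l11) passed. Differences are given ± SE.

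**Figure D1:**
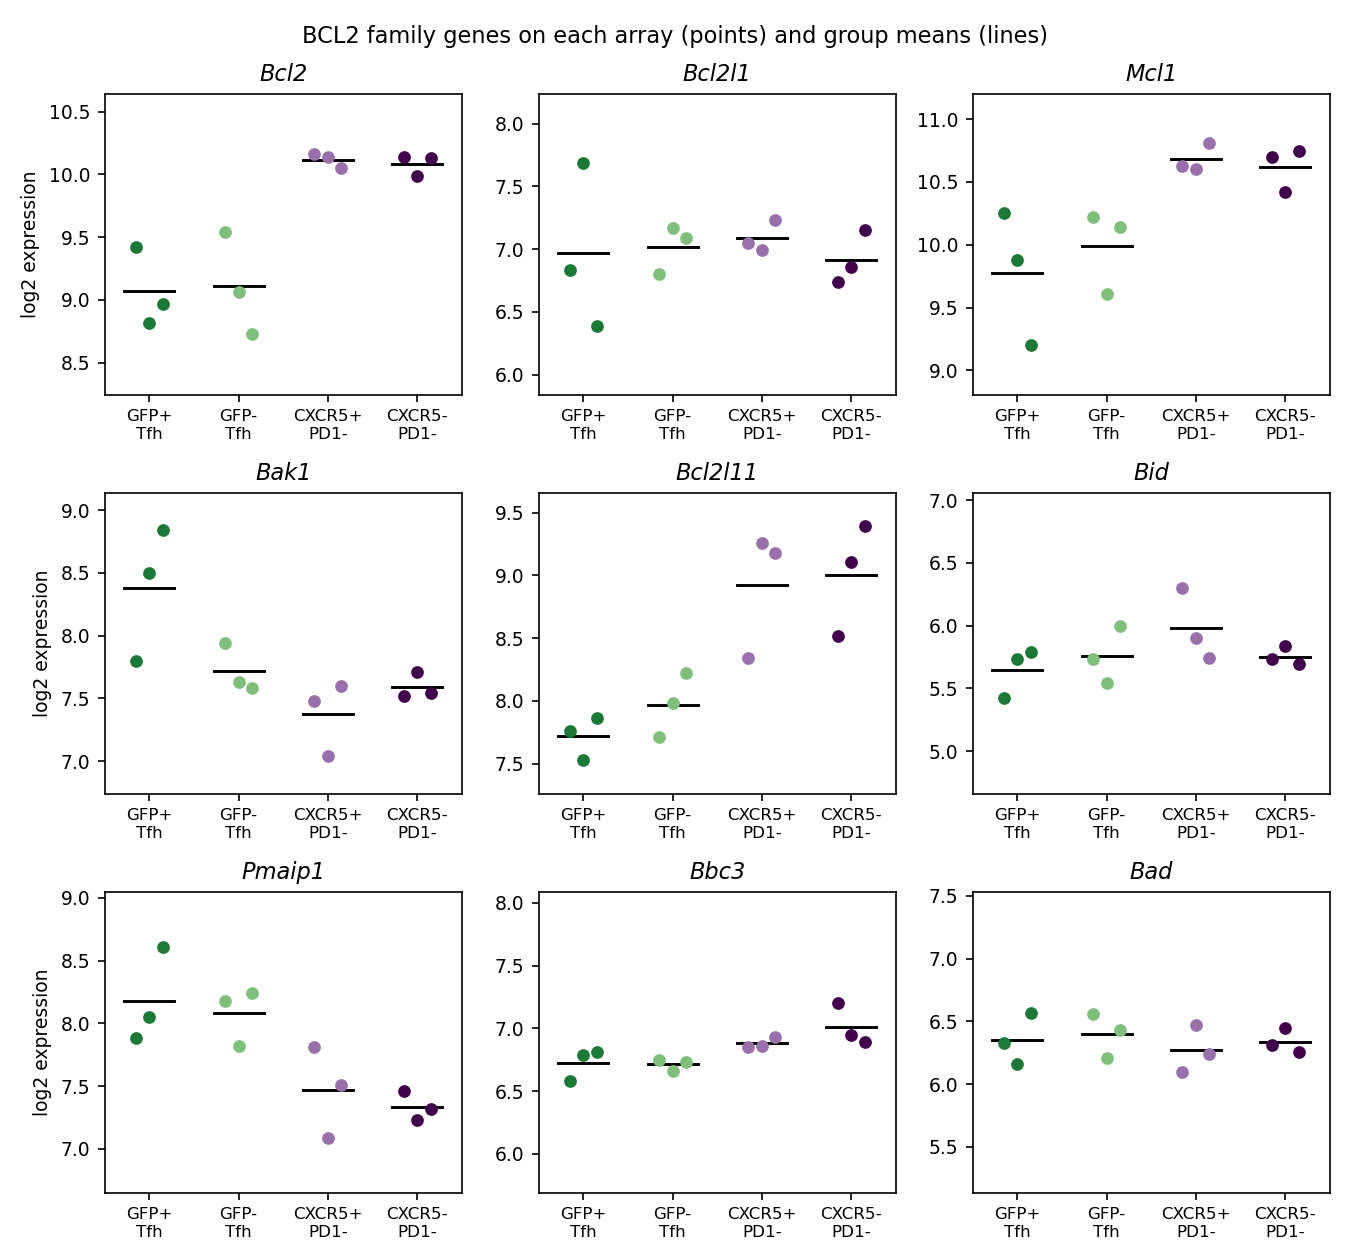
Log2 expression (vertical axis, the same span in every panel) of the 9 measured members on each of the 3 arrays per group, with replicates 1 to 3 from left to right and a line at the group mean. Bcl2, Mcl1 and Bcl2l11 lie lower on all 6 Tfh arrays than on any of the 6 PD1- arrays, Pmaip1 lies higher, and the Bak1 points of GFP+ Tfh spread from 7.80 to 8.84.

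The stretch before the start of transcription is shown for the 3 genes that fell, as RefSeq gives it for mouse build GRCm38.p6. Each line holds 250 bases up to the start, read 5′ to 3′ in the direction of the gene. Capitals mark GC boxes (GGGCGG or CCGCCC, the letters bound by Sp and KLF type factors) and the FOXO motif (TGTTTAC or GTAAACA). The windows are Bcl2 at chr1:106714291-106714540 on the minus strand, Mcl1 at chr3:95658471-95658720 on the plus strand, and the first of 2 start sites of Bcl2l11 at chr2:128125788-128126037 on the plus strand.
Bcl2: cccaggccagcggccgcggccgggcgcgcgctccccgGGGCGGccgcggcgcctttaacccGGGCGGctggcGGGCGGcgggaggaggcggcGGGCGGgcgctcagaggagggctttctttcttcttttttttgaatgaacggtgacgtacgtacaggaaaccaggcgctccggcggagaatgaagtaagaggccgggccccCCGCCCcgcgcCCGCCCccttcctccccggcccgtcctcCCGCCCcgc
Mcl1: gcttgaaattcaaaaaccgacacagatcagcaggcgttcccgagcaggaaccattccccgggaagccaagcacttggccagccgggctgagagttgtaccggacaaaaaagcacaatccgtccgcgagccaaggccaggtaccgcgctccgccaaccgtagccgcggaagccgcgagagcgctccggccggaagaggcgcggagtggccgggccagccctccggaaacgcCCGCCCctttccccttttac
Bcl2l11: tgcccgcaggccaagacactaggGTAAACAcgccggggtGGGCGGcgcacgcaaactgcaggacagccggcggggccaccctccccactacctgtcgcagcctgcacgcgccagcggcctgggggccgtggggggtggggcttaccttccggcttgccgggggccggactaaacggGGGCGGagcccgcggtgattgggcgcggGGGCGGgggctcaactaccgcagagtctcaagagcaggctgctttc

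The Bcl2 window held 7 GC boxes and the Bcl2l11 window 3, while the Mcl1 window held 1. FOXO factors are known activators of Bcl2l11. Of its windows, the one shown was chosen because it held a FOXO motif (1 match), so finding it there is no result. The first base of that motif lies at position -227 from the start. The window of the second start site held 0 FOXO motifs. Over the 15 windows listed for 9 of the 10 members, 10 held a GC box, against 32.7% of all 32851 windows in the table. Some members have several windows, and those of Bbc3 partly overlap, so the 15 are not independent. Their GC content was 47.6% to 81.6%, and the share over all windows was not matched for it. A FOXO motif was in 2 of the 15, in a window of Bcl2l11 and in a window of Bbc3, against 3.17% of all windows. A STAT motif (TTCNNNGAA, which reads the same on both strands) was in 0 of the 15, against 7.02% of all windows. Both strands were searched, and the motifs were counted separately where they overlapped. These matches describe letters only. Of the FOXO genes, Foxo1 differed by 0.04 ± 0.11 (limma adjusted p = 0.905) and Foxo3 by 0.02 ± 0.14 (limma adjusted p = 0.97) between Tfh and PD1- cells. These are RNA levels, and the activity of the FOXO proteins was not measured.

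Among the guard genes, Bcl2, the founding survival gene of the family, had log2 values of 9.42, 8.82 and 8.97 in GFP+ Tfh and 9.54, 9.06 and 8.73 in GFP- Tfh, against 10.16, 10.14 and 10.05 in CXCR5+PD1- cells and 10.14, 9.99 and 10.13 in CXCR5-PD1- cells. Every Tfh array lay below every PD1- array, as did 4.07% of the genes tested. The Tfh arrays were spread, and the PD1- arrays lay close together. Bcl2 fell by 1.01 ± 0.14 in Tfh over PD1- cells, which is 2.02-fold lower (adjusted p = 0.000684), and passed in each of the 20 alternatives tried for this comparison. Its means were 9.07 ± 0.31 in GFP+ Tfh and 9.11 ± 0.41 in GFP- Tfh, against 10.12 ± 0.06 in CXCR5+PD1- and 10.09 ± 0.08 in CXCR5-PD1- cells (SD, n = 3 each). The Tfh groups overlapped each other, and so did the PD1- groups.

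Mcl1, a short-lived guard that T cells need at all stages, had log2 values of 10.25, 9.88 and 9.20 in GFP+ Tfh and 10.22, 9.61 and 10.14 in GFP- Tfh, against 10.63, 10.60 and 10.81 in CXCR5+PD1- cells and 10.70, 10.42 and 10.75 in CXCR5-PD1- cells. All 6 Tfh arrays were again the lower ones, GFP+ replicate 3 lowest. Mcl1 fell by 0.77 ± 0.17, or 1.70-fold (adjusted p = 0.0127). It did not pass with the male arrays alone (adjusted p = 0.0648) or with GFP- Tfh as the only Tfh group (adjusted p = 0.107).

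Bcl2l1, which encodes Bcl-xL, a guard best known in activated T cells and thymocytes, gave 6.83, 7.69 and 6.39 in GFP+ Tfh and 6.80, 7.17 and 7.09 in GFP- Tfh, against 7.05, 6.99 and 7.23 in CXCR5+PD1- cells and 6.74, 6.86 and 7.15 in CXCR5-PD1- cells. The 4 groups overlapped, and the GFP+ arrays held both the highest and the lowest value. Its log2 difference between Tfh and PD1- cells was -0.01 ± 0.19 (limma adjusted p = 0.991), and its sign turned under 8 of the 20 alternatives.

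Among the BH3-only genes, Bcl2l11 fell, as Bcl2 and Mcl1 did. Bim, its product, binds all guard proteins. Bcl2l11 stood at 7.76, 7.53 and 7.86 in GFP+ Tfh and 7.71, 7.98 and 8.22 in GFP- Tfh, against 8.34, 9.26 and 9.18 in CXCR5+PD1- cells and 8.52, 9.11 and 9.39 in CXCR5-PD1- cells. Tfh arrays did not overlap with PD1- arrays, although replicate 1 of both PD1- groups lay near the top of the Tfh range. It fell by 1.12 ± 0.19, or 2.18-fold, the lowest difference of the 8 members (adjusted p = 0.00233), and it passed in all 20 alternatives. Its means were 7.72 ± 0.17 in GFP+ Tfh and 7.97 ± 0.25 in GFP- Tfh, against 8.92 ± 0.51 in CXCR5+PD1- and 9.01 ± 0.44 in CXCR5-PD1- cells (SD, n = 3 each), again with overlap within each pair.

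Pmaip1 went the other way. Its product Noxa binds Mcl-1 and promotes its breakdown. It read 7.88, 8.05 and 8.61 in GFP+ Tfh and 8.18, 7.82 and 8.24 in GFP- Tfh, against 7.81, 7.09 and 7.51 in CXCR5+PD1- cells and 7.46, 7.23 and 7.32 in CXCR5-PD1- cells. The groups were separated by a narrow gap, with the lowest Tfh array at 7.82 and the highest PD1- array at 7.81, and 3.49% of the genes tested were higher on all Tfh arrays. Pmaip1 rose by 0.73 ± 0.15, or 1.65-fold (adjusted p = 0.00984). It did not pass with the male arrays alone (adjusted p = 0.0894) or with GFP- Tfh as the only Tfh group (adjusted p = 0.0624).

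The other BH3-only genes did not pass or were too dim to test. Bbc3, which encodes Puma, a p53 target that binds all guards, stood at 6.58, 6.79 and 6.81 in GFP+ Tfh and 6.75, 6.66 and 6.73 in GFP- Tfh, against 6.85, 6.86 and 6.93 in CXCR5+PD1- cells and 7.20, 6.95 and 6.89 in CXCR5-PD1- cells. All Tfh arrays were lower, by a small margin, and the difference of -0.23 ± 0.08 did not pass (limma adjusted p = 0.116). Bad, whose product is held inactive by growth factor signals, lay at 6.16 to 6.57 in the 6 Tfh arrays and 6.10 to 6.47 in the 6 PD1- arrays, close to the array medians. It differed by 0.07 ± 0.10 (limma adjusted p = 0.792). Bid, which links death receptors to the mitochondrion, lay below the array median on all 12 arrays, at 5.42 to 6.0 in Tfh and 5.69 to 6.30 in PD1- cells, and was not tested. Differences of genes so near the median or below it are compressed by RMA, the method that summarised the probes.

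Of the pore formers, only Bak1 was measured. Bak sits in the mitochondrial membrane and is held there by Mcl-1 and Bcl-xL. Bak1 had log2 values of 7.80, 8.50 and 8.84 in GFP+ Tfh and 7.94, 7.63 and 7.58 in GFP- Tfh, against 7.48, 7.04 and 7.60 in CXCR5+PD1- cells and 7.52, 7.71 and 7.54 in CXCR5-PD1- cells. The 2 highest arrays were GFP+ replicates 2 and 3, and GFP+ replicate 1 lay within the range of GFP- Tfh. Over both Tfh groups its difference of 0.57 ± 0.17 missed the threshold (limma adjusted p = 0.0529). It passed without GFP+ replicate 1 (0.71, adjusted p = 0.00406), with 1 weight per group (adjusted p = 0.0432) and with GFP+ Tfh as the only Tfh group (0.90, adjusted p = 0.0179).

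**Figure D2:**
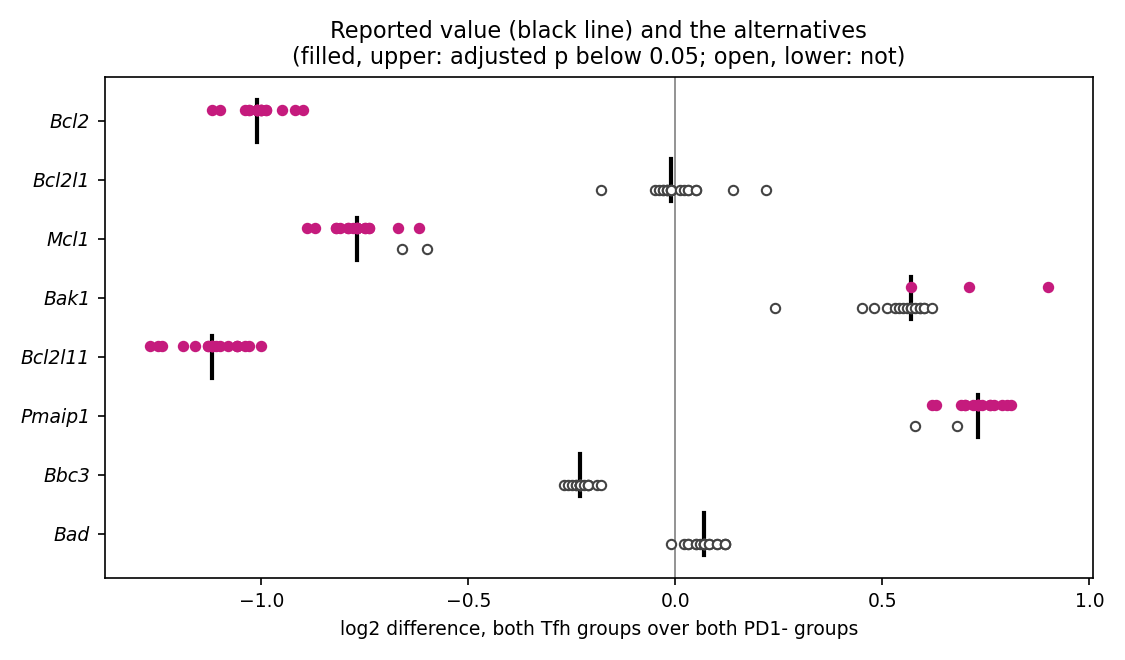
Log2 difference of each tested member between both Tfh groups and both PD1- groups (horizontal axis) as reported (black line) and under 20 alternatives (points, filled where adjusted p is below 0.05). Bcl2 and Bcl2l11 are filled throughout, Mcl1 and Pmaip1 each have 2 open points, and Bak1 has 3 filled ones.

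Each Tfh group was also set against CXCR5-PD1- cells alone, where Bcl2l11 and Bcl2 had the lowest differences and Pmaip1 the highest. These comparisons share their CXCR5-PD1- arrays, so they are not independent of each other. In GFP+ Tfh over CXCR5-PD1- cells, Bcl2 fell by 1.02 ± 0.20 (adjusted p = 0.0109), Bcl2l11 fell by 1.29 ± 0.27 (adjusted p = 0.0141) and Pmaip1 rose by 0.84 ± 0.22 (adjusted p = 0.0435), in limma. Thus 3 of 8 members passed, against 6.2% of all genes tested, 1 higher against 2.45% and 2 lower against 3.75%. The arrays of the 2 groups did not overlap for 6 of 8 members, against 18.8% of the genes tested. Mcl1 differed by -0.85 ± 0.24 (limma adjusted p = 0.065) and Bak1 by 0.79 ± 0.24 (limma adjusted p = 0.0767). With 1 weight per group, or with the male arrays alone, 0 members passed in this comparison (limma adjusted p for Bcl2 = 0.06 and 0.0756). Bcl2l11 lost the call without CXCR5-PD1- replicate 2 or 3 (limma adjusted p = 0.0558 and 0.0707), and Pmaip1 lost it without GFP+ replicate 2 or 3 and without each CXCR5-PD1- replicate (limma adjusted p = 0.0638 to 0.132). Pmaip1 also lost it with no filter (limma adjusted p = 0.0607) and with the compared groups alone (limma adjusted p = 0.113), and passed in 4 of 13 alternatives in all.

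In GFP- Tfh over CXCR5-PD1- cells, 1 of 8 members passed, against 3.82% of all genes tested, and it was lower, as were 1.6% of all genes tested. Bcl2 fell by 0.98 ± 0.20 (limma adjusted p = 0.018). Bcl2l11 differed by -1.04 ± 0.27 (limma adjusted p = 0.0564), Mcl1 by -0.63 ± 0.24 (limma adjusted p = 0.24) and Pmaip1 by 0.74 ± 0.22 (limma adjusted p = 0.0964). The arrays of the 2 groups did not overlap for these 4 genes and for Bbc3, which is 5 of 8 members, against 21.6% of the genes tested. Bak1 differed by 0.13 ± 0.24 here. Bcl2 lost the call without GFP- replicate 2 or 3 (limma adjusted p = 0.0749 and 0.0627), without CXCR5-PD1- replicate 1 or 3 (limma adjusted p = 0.0652 and 0.0752) and with the male arrays alone (limma adjusted p = 0.176).

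The comparison named by the series' design, GFP+ over GFP- Tfh, asks what sets apart the Tfh cells that report IL-21. It does not set cells with Il21 RNA against cells without it. Il21 had log2 values of 10.25 to 10.82 in GFP+ Tfh and 9.57 to 10.17 in GFP- Tfh, against 5.39 to 7.31 in CXCR5-PD1- cells. Its difference between the Tfh groups was 0.63 ± 0.56 (limma adjusted p = 0.824). In limma 0 of 8 members passed, against 0.0445% of all genes tested, and 1 member (Bak1) had an unadjusted p under 0.05, against 7.37% of the genes. No member's arrays separated the 2 groups, against 8.74% of the genes. Bcl2 differed by -0.04 ± 0.20, with a 95% interval of -0.48 to 0.40, so a change of the size seen between Tfh and PD1- cells lay outside it. Bcl2l11 differed by -0.26 ± 0.27 (interval -0.84 to 0.33), Mcl1 by -0.21 ± 0.24 (-0.74 to 0.31) and Pmaip1 by 0.10 ± 0.22 (-0.38 to 0.57). Bak1 differed by 0.66 ± 0.24 (interval 0.14 to 1.18, limma adjusted p = 0.559), with arrays that overlapped. Without GFP+ replicate 1 it passed, at 0.95 (limma adjusted p = 0.0365). In the same comparison the 6 myeloid markers averaged -0.43 to -0.14 relative to the array median in GFP+ Tfh, against -0.56 to -0.51 in GFP- Tfh. Among them Lyz2, the lysozyme of macrophages and granulocytes, had log2 values of 7.33, 7.64 and 6.27 in GFP+ Tfh, against 5.56, 5.83 and 5.72 in GFP- Tfh (1.38 ± 0.38, limma adjusted p = 0.416, no overlap). The other tested marker of the list, Cd68, differed by 0.14 ± 0.25 (limma adjusted p = 0.926), with overlap. Itgam, Csf1r and Itgax had slightly higher means in GFP+ Tfh and Mpo a lower one, but all were too dim to test. CXCR5-PD1- arrays lay at -0.49 to -0.17 on the same list, so such values were not particular to GFP+ Tfh. The part of myeloid cells in the Bak1 values was not tested. Of the 9 measured members, 5 had their widest spread between replicates in GFP+ Tfh, with SDs of 0.66 for Bcl2l1 and 0.53 for Mcl1 and Bak1.

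CXCR5+PD1- over CXCR5-PD1- cells gave 0 of 8 members past the threshold in limma, none with an unadjusted p under 0.05, and 0% of all genes tested passed (137 of them, 1.22%, had an unadjusted p under 0.05). The members' differences ran from -0.22 ± 0.24 for Bak1 to 0.17 ± 0.26 for Bcl2l1. The 95% intervals were -0.41 to 0.47 for Bcl2 and -0.67 to 0.50 for Bcl2l11. Arrays of these groups overlapped for all 8 members tested, while 8.74% of the genes tested did not overlap.

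**Figure D3:**
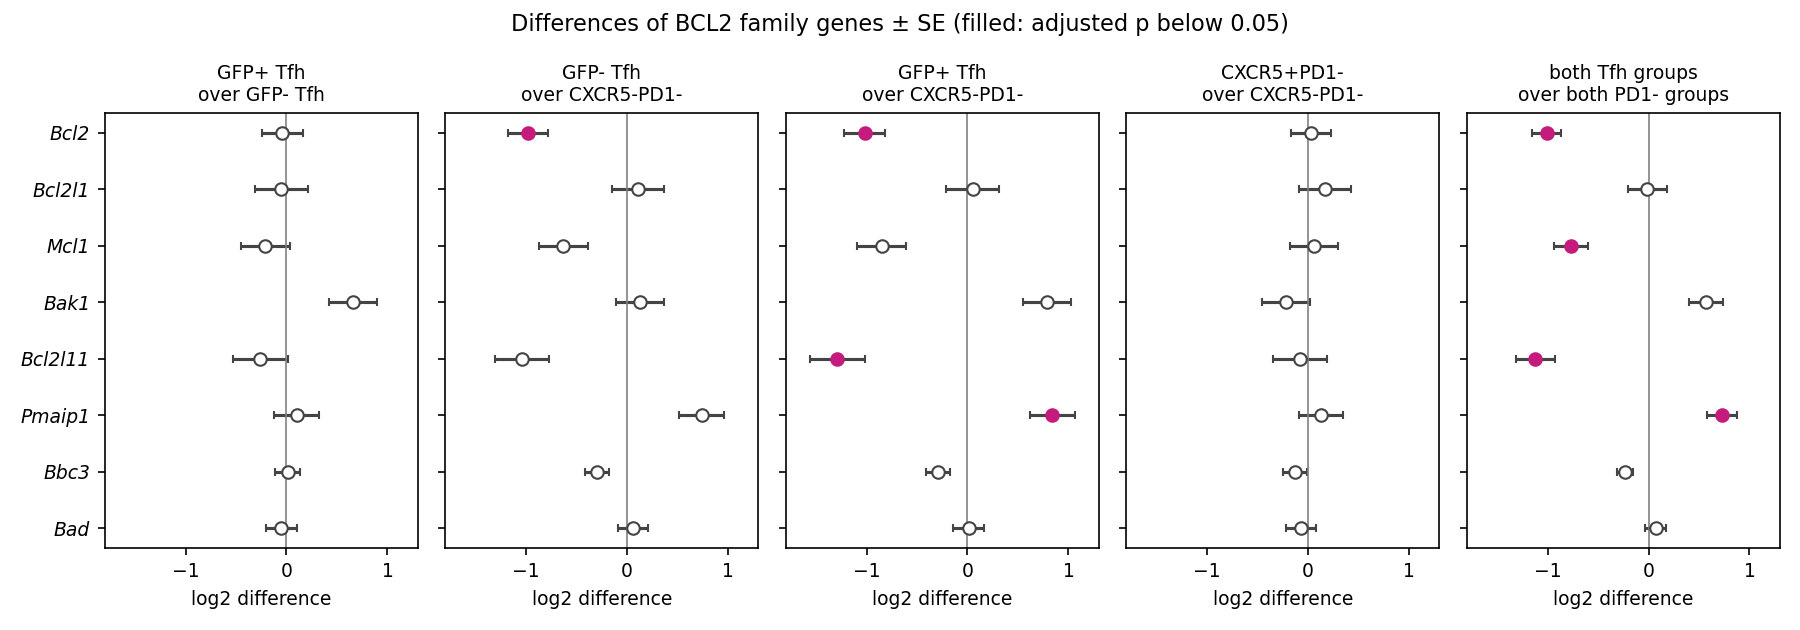
Log2 differences ± SE (horizontal axis) of the 8 tested members in the 5 comparisons, filled where adjusted p is below 0.05. Bcl2 lies near -1 in the 3 comparisons of Tfh with PD1- cells and near 0 in the other panels, and 4 members are filled where both Tfh groups are set against both PD1- groups.

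Among the other family genes 8 were tested in Tfh over PD1- cells, with a median of 0.03, and Bcl2a1c rose. Bcl2l15 is set apart below, since it was tested only through arrays where it is high. Bcl2a1c, from the mouse A1 cluster of survival genes, stood at 8.62, 9.0 and 8.67 in GFP+ Tfh and 8.53, 8.91 and 8.29 in GFP- Tfh, against 7.33, 7.32 and 6.73 in CXCR5+PD1- cells and 7.42, 7.75 and 7.23 in CXCR5-PD1- cells. It rose by 1.37 ± 0.15, or 2.59-fold (adjusted p = 0.000111), with no overlap between Tfh and PD1- arrays, and it passed in all 20 alternatives. The A1 copies are near-identical and Bcl2a1a, Bcl2a1b and Bcl2a1d were not analysed here, so the signal cannot be given to this copy alone. Bcl2l15 lay at 5.62 to 6.52 in Tfh and 4.86 to 5.75 in PD1- cells, and was above the array median on 3 arrays only, all of them Tfh. Its difference of 0.90 ± 0.17 (limma adjusted p = 0.00491) is given as a value, not as a call. The BH3-only genes Bik (0.15 ± 0.09), Bmf (-0.06 ± 0.10) and Hrk (0.01 ± 0.08) and the pore former relative Bok (-0.09 ± 0.13) did not pass.

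Downstream of the mitochondrion, 1 of 15 tested genes for the apoptosome, caspases and their inhibitors fell in Tfh over PD1- cells and 0 rose (median 0.03), where 5.33% of all genes tested were lower and 5.05% higher, so the share is near that of all genes. It was Dffb, the nuclease that cuts DNA in dying cells, at 6.25 to 6.56 in Tfh and 6.77 to 7.08 in PD1- cells (-0.49 ± 0.09, adjusted p = 0.00296). Cytochrome c (Cycs, 0.06 ± 0.15), Apaf1 of the apoptosome (0.20 ± 0.13) and its caspase Casp9 (0.03 ± 0.10) did not pass. Birc5, the dividing-cell inhibitor survivin, was above the array median on 4 arrays, all of them Tfh, so it too was tested only through arrays where it is high. It stood at 6.88, 6.92 and 6.65 in GFP- Tfh, against 6.14, 6.31 and 6.28 in CXCR5-PD1- cells. The difference of 0.57 ± 0.14 (limma adjusted p = 0.046) passed in 3 of 13 alternatives and is given as a value, not as a call.

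In the death receptor pathway 2 of 9 tested genes were past the threshold in Tfh over PD1- cells, both lower (median -0.29), against 5.33% lower over all genes tested. Of these, Tnfsf10 is not counted as a call, for the reason given below. Tnfrsf10b, the mouse receptor for the death ligand TRAIL, differed by -0.76 ± 0.20 (adjusted p = 0.0302) and Tnfsf10, the gene of TRAIL, by -0.66 ± 0.18 (adjusted p = 0.0343). Arrays overlapped for both genes. Tnfsf10 was above the array median on 4 arrays, 3 of them PD1-, so it met the filter through the groups where it is high. Its differences are given as values, not as calls. Both results were fragile: Tnfrsf10b passed in 11 of 20 alternatives (limma adjusted p up to 0.188) and Tnfsf10 in 9 of 20 (limma adjusted p up to 0.271). Tnfrsf10b did not pass without any 1 of the GFP- Tfh replicates, GFP+ replicate 1 or 2, CXCR5+PD1- replicate 3, CXCR5-PD1- replicate 2 or 3, and with GFP- Tfh as the only Tfh group. Tnfsf10 did not pass without GFP+ replicate 1 or 2, GFP- replicate 2 or 3, CXCR5+PD1- replicate 1, CXCR5-PD1- replicate 1 or 3, with GFP- Tfh as the only Tfh group, with the male arrays alone, with cyclic loess and with 1 weight per group. Fas, the death receptor of germinal centre cells, differed by 0.33 ± 0.28 and did not pass. Of 16 genes that regulate the family's genes or proteins, 1 fell and 0 rose (median 0.00), again near the 5.33% of all genes tested that were lower. It was Huwe1, a ubiquitin ligase that targets Mcl-1, at 9.67 to 9.96 in Tfh and 10.14 to 10.24 in PD1- cells (-0.31 ± 0.07, limma adjusted p = 0.0138). It did not pass with the male arrays alone (limma adjusted p = 0.113) or with GFP- Tfh as the only Tfh group (limma adjusted p = 0.145). The deubiquitinase Usp9x, which spares Mcl-1, differed by 0.03 ± 0.10.

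Within the other comparisons, these 4 lists held few calls. In GFP+ Tfh over CXCR5-PD1- cells Bcl2a1c was higher (1.3 ± 0.21, limma adjusted p = 0.00376) and Huwe1 was lower (-0.38 ± 0.10, limma adjusted p = 0.0476). Tnfsf10, given as a value for the reason above, differed by -1.05 ± 0.25 (limma adjusted p = 0.0303). In GFP- Tfh over CXCR5-PD1- cells Bcl2a1c was higher (1.11 ± 0.21, limma adjusted p = 0.0123). Bcl2l15, tested there only through Tfh arrays as above, differed by 1.06 ± 0.24 (limma adjusted p = 0.0306). Several of these results depended on the setting. In GFP+ Tfh over CXCR5-PD1- cells, Tnfsf10 passed in 6 of 12 alternatives (limma adjusted p up to 0.2) and Huwe1 in 3 of 13 (limma adjusted p up to 0.267). Tnfsf10 did not pass without GFP+ replicate 2 or 3 or CXCR5-PD1- replicate 1 or 3, with 1 weight per group and with the male arrays alone. Huwe1 lost the call without the same replicates or CXCR5-PD1- replicate 2, in those 2 settings, and with cyclic loess, the replicate block (limma adjusted p = 0.0593) or the compared groups alone. In GFP- Tfh over CXCR5-PD1- cells, Bcl2a1c passed in 11 of 13 alternatives and did not without GFP- replicate 2 (limma adjusted p = 0.0622) or CXCR5-PD1- replicate 3 (limma adjusted p = 0.0683). In GFP+ over GFP- Tfh limma called 0 genes of these lists. An unadjusted p under 0.05 was met by 3 of 15 apoptosome and caspase genes and 2 of 16 regulators, against 7.37% of all genes tested. They were Htra2 (-0.81 ± 0.16), Birc5 (-0.52 ± 0.14), Casp2 (-0.52 ± 0.14), Akt1 (-0.36 ± 0.11) and Dynll1 (-1.17 ± 0.40). All were lower in GFP+ Tfh, with limma adjusted p = 0.177 to 0.515. Birc5 met the filter through Tfh arrays, as above. Arrays did not overlap for 4 of 15 and 2 of 16 genes, all lower, against 8.74% of all genes tested in either direction. In CXCR5+PD1- over CXCR5-PD1- cells limma called 0, and 0 had an unadjusted p under 0.05.

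**Figure D4:**
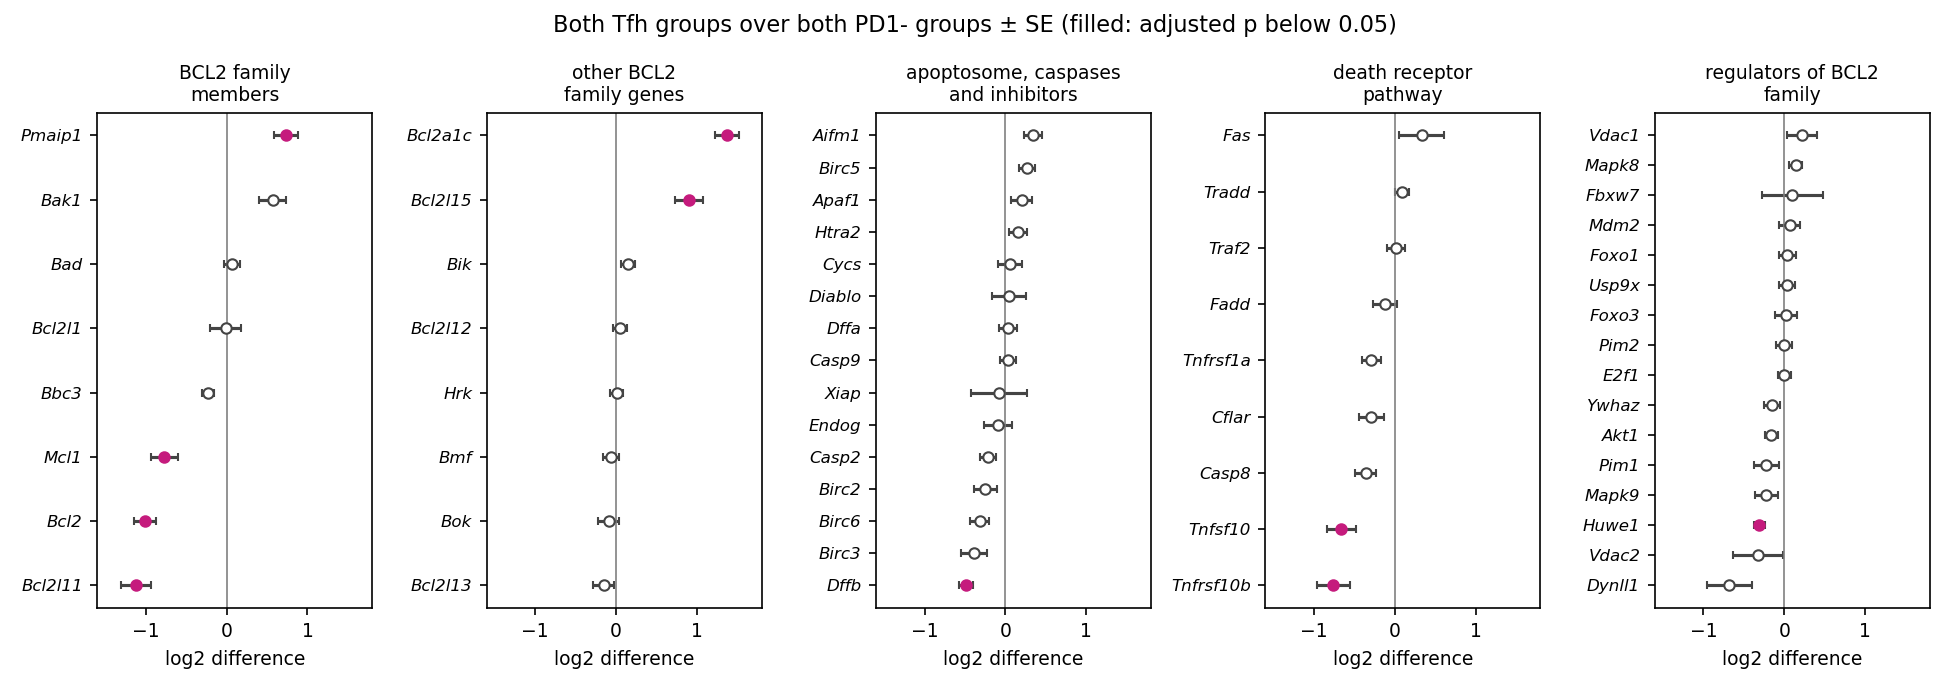
Log2 differences ± SE (horizontal axis) between both Tfh groups and both PD1- groups for the tested genes of each list, filled where adjusted p is below 0.05. Filled points are 4 of 8 among the members, against 2 of 8 (Bcl2a1c and the dim Bcl2l15), 1 of 15, 2 of 9 (Tnfrsf10b and the dim Tnfsf10) and 1 of 16 in the other lists. Over all genes tested the share is 10.4%. The lists were chosen with earlier results of these data known, so the shares are descriptions.

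The genes whose log2 values followed Bcl2 most closely over the 12 arrays were Usp3 (Pearson r = 0.981), Ms4a6b (0.975), Slc38a2 (0.964) and Acss1 (0.957). For Bcl2l11 they were Ifngr2 (0.969), Sgms1 (0.962), Heatr5a (0.953) and Zfp281 (0.951). These correlations are descriptions over 12 arrays that share the same 4 groups. The genes listed differed by -0.48 to -2.24 between Tfh and PD1- cells, a direction that their choice by correlation with Bcl2 or Bcl2l11 favours. No member or other listed gene of cell death was among them. Only 4 genes were taken for each of Bcl2 and Bcl2l11, so this absence is no result.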

How the data were processed

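Sorted CD4+ T cells gave the RNA for 12 Affymetrix arrays, 3 in each of 4 groups taken from the sample titles. The values deposited by the authors are on a log2 scale and cover 34760 probe sets. The submitters' processing notes name RMA and oligo as tools; versions and genome build are not given in the sources used here. RMA equalises the arrays' distributions and compresses low signals. Of the probe sets 21640 had 1 gene symbol, and symbols were updated by gene identifier (21553 matched) through RefSeq GRCm38.p6. Where a gene had several, that with the highest mean was used, giving 19937 genes. A gene was tested if above the array median on at least 3 arrays (11240 genes).

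The 5 comparisons were contrasts in 1 model with a coefficient per group (lmFit and eBayes of limma 3.58.1, under R 4.3.3, with 8 residual degrees of freedom), adjusted by Benjamini-Hochberg at 0.05. The code was tested on simulated data. The members and gene lists were chosen with earlier results of these data known. Named genes are the members, up to 4 genes per list with the smallest p in a comparison, the gate markers and the 4 genes most correlated with Bcl2 and with Bcl2l11. Outside this rule Bok, Cycs, Apaf1, Fas, Foxo3, Usp9x and the marker Lyz2 were named for their roles after their values were seen. Same-numbered replicates deviated together in CXCR5+PD1- over CXCR5-PD1- cells (correlations 0.21 to 0.353) and not in every pair of the others (lowest -0.0195). What the numbers stand for is not labelled, but they matched in sex across the groups. The reported model had no term for replicate number or sex. Replicates of a group were not copies of each other (lowest root mean square difference 0.283). Alternatives changed the filter, normalization, weights, the arrays in the fit, the block on replicate number, the choice among probe sets of a gene, and the replicates used, each dropped once. The male arrays alone and either Tfh group alone over both PD1- groups were added after seeing the data. The number of arrays limits the precision. No column of the table was left without a sample.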

Additional observations from a re-analysis of the deposited data

How the results depend on the processing

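In Tfh over PD1- cells, Bcl2 (-1.12 to -0.90) and Bcl2l11 (-1.27 to -1.0) passed in all 20 alternatives, and Mcl1 and Pmaip1 in 18 each. Members past the threshold there numbered 4 as reported, 4 to 5 without each replicate in turn, and 2 with the male arrays alone or with GFP- Tfh as the only Tfh group. Over all genes, 1167 passed as reported and 639 with GFP- Tfh as the only Tfh group. Leaving out each replicate gave 880 to 1499 genes there.

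In GFP- Tfh over CXCR5-PD1- cells, 1 member and 429 genes passed as reported. The counts were 3 and 829 with 1 weight per group, 3 and 672 with the compared groups alone, and 0 and 271 with the male arrays alone. Without each replicate they were 0 to 1 and 227 to 326, lowest without CXCR5-PD1- replicate 3. The replicate block gave 2 members, adding Bcl2l11 (limma adjusted p = 0.0138). Replicate numbers matched in sex across the groups. Same-numbered arrays of this pair of groups correlated at 0.0118 to 0.196, and whether they share animals is not labelled. The block moved no other count of members. In GFP+ Tfh over CXCR5-PD1- cells, 3 members and 697 genes passed as reported. The counts were 0 and 300 with 1 weight per group, 0 and 398 with the male arrays alone, and 263 genes with the compared groups alone. Without each replicate they were 1 to 5 and 347 to 1142, highest without GFP+ replicate 1. In GFP+ over GFP- Tfh, 5 genes passed as reported, 3 with 1 weight per group, and 0 with the compared groups or the male arrays alone. Without each replicate 3 to 237 genes and 0 to 1 members passed, both highest without GFP+ replicate 1. CXCR5+PD1- over CXCR5-PD1- cells gave 0 genes in limma under every alternative, and the block, which pairs these samples, changed no call. The cause of these shifts was not tested. Some of the fits held fewer arrays, and counts rose in some of these and fell in others.

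Signs turned only for differences that did not pass. In GFP+ over GFP- Tfh these were Bcl2 (0.04 with cyclic loess), Bbc3 (-0.01 with cyclic loess, -0.02 with male arrays alone) and, with male arrays alone, Bcl2l1 (0.27), Mcl1 (0.15) and Pmaip1 (-0.04). Without each replicate the ranges there were -0.23 to 0.18 for Bcl2, -0.41 to 0.24 for Bcl2l1, -0.45 to 0.07 for Mcl1, -0.12 to 0.25 for Pmaip1, -0.03 to 0.08 for Bbc3 and -0.16 to 0.04 for Bad. In Tfh over PD1- cells Bcl2l1 gave 0.01 with cyclic loess, 0.22 with male arrays alone, 0.02 with GFP- Tfh alone and -0.18 to 0.14 without each replicate, and Bad gave -0.01 with male arrays alone. In GFP+ Tfh over CXCR5-PD1- cells Bad gave -0.03 with cyclic loess, -0.13 with male arrays alone and -0.09 to 0.11 without each replicate, Bcl2l1 -0.30 to 0.34 and Birc5 -0.08 to 0.18. In GFP- Tfh over CXCR5-PD1- cells Bad gave -0.02 to 0.16. In CXCR5+PD1- over CXCR5-PD1- cells the ranges were -0.02 to 0.07 for Bcl2, -0.05 to 0.12 for Mcl1, -0.33 to 0.21 for Bcl2l11, -0.04 to 0.32 for Pmaip1 and -0.17 to 0.02 for Bad. Where a replicate was left out, the spread was pooled over all groups.

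With 3 arrays per group, members near or below the array median are limited by signal over background. These are Bad, Bid, Bbc3 (0.24 to 0.79 above the median) and, on some arrays, Bcl2l1, which lay below it on GFP+ replicate 3 only.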
